A study of Mus musculus with 27 samples.

Results

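Distal and proximal colon of the same mouse were compared in mice whose intestinal epithelium lacks the transcription factors Foxa1 and Foxa2. The members are the libraries of the 7 mice labelled deficient, 1 from the proximal and 1 from the distal colon of each, which makes 14 of the 27 libraries of the series. Each distal library was set against the proximal library of the same mouse, and the mice are numbered 1 to 7 after the replicate numbers in the labels. All 7 carried Villin1-Cre, a recombinase transgene driven by an intestinal epithelial promoter, with both alleles of Foxa1 and of Foxa2 flanked by loxP sites (Foxa1lox/lox; Foxa2lox/lox). Cells outside the epithelium therefore kept intact alleles of both genes. The mice were of mixed background and 9 to 13 months old, and 2 were labelled female (mice 5 and 7). The same comparison in 6 control mice with both segments is given beside it. These were all labelled male, of the same mixed background and 9 to 18 months old. Of them, 4 carried no Cre, 1 carried Villin1-Cre with 1 floxed allele of each gene, and 1 (control mouse 6) carried Villin1-Cre with both Foxa1 alleles and 1 Foxa2 allele floxed. The Foxa1 level of control mouse 6 lay within the range of the deficient mice in both segments, at 13.9 CPM (counts scaled to a common library size) in proximal and 7.57 CPM in distal colon, and its Foxa2 level lay within that of the other controls or above it. Polyadenylated RNA was read from pieces of whole colon 1 cm long, so epithelium, muscle, nerves, immune cells and stroma were measured together. In such bulk tissue, fewer cells of a type and less RNA per cell cannot be told apart.

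The colon changes along its length. The proximal colon, next to the caecum, ferments fibre, takes up short-chain fatty acids and handles bile acids that escape the ileum. The distal colon recovers sodium and water, secretes potassium and bicarbonate and carries a firmer mucus layer. Position along the gut is marked by Hox genes, whose members are switched on in the order in which they lie in their clusters, and by other transcription factors laid down in the embryo. Foxa1 and Foxa2 are forkhead factors that open chromatin in tissues derived from endoderm and are known for roles in goblet and enteroendocrine cells of the gut.

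Proximal libraries of the deficient mice held 39238691 to 47370018 estimated counts and distal libraries 18472867 to 41512686, with the lowest in mouse 7. The first principal component of 26 libraries held 48.5% of the variance and separated the segments, and the second held 10.5% and separated the genotypes. The quantification did not treat fragment length alike in both segments: kallisto's effective transcript length was shorter than the full length by 249 bases in all distal libraries, and by 215 to 246 bases in proximal libraries of deficient mice. This step and the segment cannot be told apart within 1 genotype, and the controls carry it too. Very short genes differed between the segments in both genotypes. Of 37 genes whose longest transcript was under 300 bases, 32 were at least 2-fold higher in proximal colon, with a median log2 difference of -5.28 in deficient and -5.43 in control mice. Of 762 pseudogenes tested, 252 were at least 2-fold higher in distal and 91 in proximal colon.

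Some libraries stood apart. Mouse 3, labelled male, had 2.97 and 3.57 CPM of 4 Y-linked transcripts summed in its proximal and distal libraries, against 2.60 to 6.24 CPM in the mice labelled female and 157 to 190 CPM in the other deficient mice. Transcripts of pancreatic acinar cells (7 enzyme genes summed) reached 750 CPM in the distal library of mouse 4, 367 CPM in that of mouse 5 and 21.2 CPM in that of mouse 2, and 248 CPM in that of control mouse 4. They were at 2.14 CPM or less in the other deficient libraries. Paneth cell defensin Defa24, named after its values were seen, stood at 21.5 CPM in the proximal library of mouse 3. It was at 2.23 CPM in that of mouse 5 and 1.04 CPM in that of mouse 7. All other deficient libraries held 0.0497 CPM or less. Mice 3, 5 and 7 are also those with few Y-linked transcripts. Without mouse 3 the count of genes that differed between segments was 5906, and without mice 4 and 5, with mouse 2 kept, it was 6815. With only the 4 deficient mice that had Y-linked transcripts (1, 2, 4 and 6) it was 4774.

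The first question was how far the segments differed in mice without Foxa1 and Foxa2. Of 16514 genes tested, 7445 (45.1%) passed an adjusted p of 0.05 in the edgeR test paired by mouse. Of these, 3752 (22.7% of genes tested) were higher in distal and 3693 (22.4%) in proximal colon. At least 2-fold, 1352 genes (8.19%) were higher in distal and 1612 (9.76%) in proximal colon. The median log2 difference of all tested genes was -0.03. In 2457 of these 2964 genes the difference had the same sign in all 7 mice, and in 1791 the 7 distal libraries did not overlap the 7 proximal ones. In the 6 control mice 7231 of 16507 genes (43.8%) passed, 3548 (21.5%) higher in distal and 3683 (22.3%) in proximal colon.

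The mice were not alike in the size of their differences. The median size of the paired log2 difference over the 2964 genes was 0.91 in mouse 2, 1.00 in mouse 1, 1.16 to 1.30 in mice 4, 5 and 6, 1.42 in mouse 3 and 1.54 in mouse 7. On the first principal component the distal libraries of mice 2 and 1 lay nearest to the proximal libraries, at 27.4 and 37.4, and those of mice 3 and 7 farthest, at 67.9 and 68.4. The proximal libraries lay between -56.8 and -49.8. Along this axis the distal libraries spread more widely than the proximal ones.

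Among genes with the largest differences toward distal colon, Hoxb13 (chromosome 11, 96194316 to 96197447, plus strand, GRCm38) came close to an on-off pattern. This most posterior member of the Hoxb cluster had 0 to 0.0861 CPM with a median of 0.0358 in proximal libraries, and 110 to 471 CPM with a median of 245 in distal libraries. The 2 sets of libraries did not overlap, and the lowest distal libraries were those of mice 2 and 1. The log2 difference was 12.53 (SE 0.28, adjusted p = 6.69e-09), with 13.59 in control mice. Hoxd13, its counterpart in another cluster, ran from 0 to 0.183 CPM in proximal and from 0.871 to 71.3 CPM in distal libraries, with medians of 0.0391 and 12.7 CPM. Again all distal libraries lay above all proximal ones, but they spread over a wide range, with mice 2 and 1 lowest (log2 difference 8.53, SE 0.80, adjusted p = 4.11e-05).

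Transport genes of the distal colon followed the same order of mice. Trpv6 (chromosome 6, 41620624 to 41636405, minus strand, GRCm38) encodes the apical calcium channel that takes up dietary calcium. Its level was 0 to 0.117 CPM in proximal libraries, with a median of 0.0226. In distal libraries it was 2.59 CPM in mouse 2, 6.93 in mouse 1, 134 in mouse 5, 214 in mouse 4, 219 in mouse 6, 377 in mouse 7 and 575 CPM in mouse 3. No distal library overlapped a proximal one, and the 2 lowest lay far under the other 5. The log2 difference was 12.15 (SE 0.54, adjusted p = 4.99e-07). Atp12a, the colonic H+/K+ pump that takes up potassium in exchange for acid, rose from a median of 0.771 CPM (0.573 to 1.06) in proximal to 611 CPM (124 to 1600) in distal libraries, with a log2 difference of 9.50 (SE 0.47, adjusted p = 8.13e-07). Mouse 2 was again lowest and mouse 3 highest. Fxyd4, a regulator of the sodium pump in tissues that respond to aldosterone, was at 0.281 CPM in the distal library of mouse 2, 2.41 in mouse 1, and 24.8 to 147 CPM in the other distal libraries, against at most 0.183 CPM in proximal ones (log2 difference 8.43, SE 0.51, adjusted p = 3.04e-06). In distal control libraries Fxyd4 was at 0.243 to 49.1 CPM, highest in control mouse 6.

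Serpinb11, a clade B serpin, followed that order too. It had 3 counts in all proximal deficient libraries together and 17492 in the distal ones, a fold of 9210 with an exact 95% interval of 3150 to 44700 that covers counting error only. Distal levels were 1.21 and 1.24 CPM in mice 2 and 1 and 59.4 to 197 CPM in the other 5. In distal control libraries they were 0.177 to 4.45 CPM, highest in control mouse 6, and the test of the genotype difference in the segment effect did not pass (log2 6.18, adjusted p = 0.168). Casp14, a caspase of cornifying epithelium, had 0 counts in proximal libraries and 0.59 to 20.9 CPM in distal ones, at least 878-fold higher against a floor of 3 counts over the group. Sval1, a seminal vesicle secretory protein homologue, rose from 0.0179 to 0.28 CPM in proximal to 20.9 to 404 CPM in distal libraries (log2 difference 10.44, SE 0.24, adjusted p = 6.69e-09).

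Mptx1, a mucosal pentraxin, did not follow that order. Distal levels were 34.5 CPM in mouse 3 and 40.3 CPM in mouse 7, 182 in mouse 2, 276 in mouse 6, 682 in mouse 1, 841 in mouse 5 and 964 CPM in mouse 4. Proximal levels were 0 to 3.43 CPM, so the segments did not overlap (log2 difference 9.40, SE 1.17, adjusted p = 0.000204). Mptx1 has a close relative in the genome, and how its reads were divided is uncertain. The readthrough gene RPS10-NUDT3, at 0 counts in all proximal and 5.87 to 14.4 CPM in distal libraries is named for a readthrough of its neighbours, whose reads could be shared with it. It was at least 1130-fold higher in distal colon of deficient mice and at least 897-fold higher in that of control mice.

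Toward proximal colon, the leading genes included a transcription factor of the embryonic gut wall. Osr2, a zinc-finger factor of mesenchymal patterning, stood at 75.1 to 91.0 CPM in proximal and 0 to 0.146 CPM in distal libraries, with medians of 80.2 and 0.0321 CPM. The edgeR log2 difference was -10.32 (SE 0.24, adjusted p = 6.69e-09), with -8.94 in control mice. Smooth muscle markers were also lower in distal libraries, as given further on, and their part in this difference was not tested.

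The other proximal leaders act in epithelial metabolism. Car1 (chromosome 3, 14766216 to 14808368, minus strand, GRCm38), the cytosolic carbonic anhydrase of colonocytes, was at 9149 to 14390 CPM with a median of 10260 in proximal and at 23.9 to 122 CPM with a median of 63.1 in distal libraries. The libraries did not overlap, and Car1 fell in all 7 mice (log2 difference -7.74, SE 0.33, adjusted p = 4.22e-07). Abca12, a lipid transporter, was at 82.5 to 181 CPM in proximal and 0.167 to 6.35 CPM in distal libraries. Its highest distal levels were in mice 2 and 1, at 6.35 and 4.06 CPM, with at most 0.979 CPM in the other 5. Slc51a, 1 subunit of the basolateral bile acid exporter, behaved alike, at 13.7 and 15.6 CPM in the distal libraries of mice 2 and 1 and 1.09 to 3.83 CPM in the others, against 222 to 466 CPM in proximal libraries (log2 difference -6.33, SE 0.62, adjusted p = 4.94e-05). Acaa1b, a peroxisomal thiolase, was at 26.1 CPM in the distal library of mouse 1 and 0.836 to 2.79 CPM in the other 6, against 112 to 350 CPM in proximal libraries. Cyp2c66 and Ugt8a, enzymes of oxidation and of lipid glycosylation, had log2 differences of -8.23 and -9.72. Cyp2c66 belongs to a family of near-identical copies, and its value is uncertain to that extent.

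Apoa1, the main apolipoprotein of high-density lipoprotein and a small-intestinal enterocyte product, varied most among the proximal libraries. It was at 0.34 CPM in mouse 2, 7.04 in mouse 6, 18.9 in mouse 1, 31.0 in mouse 4 and 33.9 in mouse 7. The levels in mice 5 and 3 were 116 and 243 CPM, in the proximal libraries that also held the most Defa24. Distal libraries held 0 to 1.31 CPM and overlapped the proximal range, although Apoa1 was lower in distal colon within each of the 7 mice (log2 difference -7.44, SE 0.46, adjusted p = 3.54e-06). Control libraries held at most 1.05 CPM in either segment. The mitochondrial gene mt-Atp8, 126 to 239 CPM in proximal and 0.579 to 1.07 CPM in distal libraries, is short and overlaps its neighbour, and its log2 difference was -7.82 in deficient and -7.48 in control mice. The plot of paired differences shows the ranked genes mouse by mouse.

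**Figure D1:**
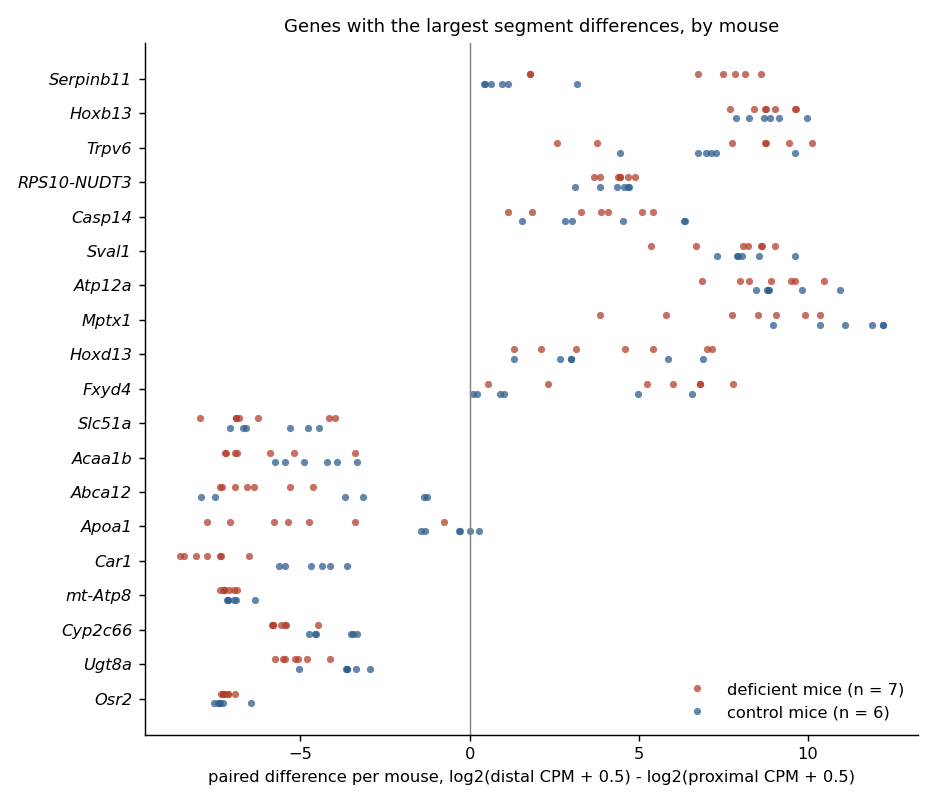
Paired difference per mouse, log2(distal CPM + 0.5) minus log2(proximal CPM + 0.5), for the ranked genes with the largest differences in each direction that are reported, with 7 deficient mice in red and 6 control mice in blue, 1 point per mouse. Trpv6, Serpinb11 and Fxyd4 spread widely among deficient mice, from 2.57 to 10.11 for Trpv6. Where 1 segment is near 0 CPM, the added 0.5 sets that end of the difference.

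Promoters were searched for forkhead motifs and for a motif bound by Cdx and posterior Hox factors, since the deleted genes and the leading positional genes encode such factors. The window was the 250 bases before the RefSeq start on GRCm38.p6, 1 start per gene. For Anpep that start lies 12848 bases from the gene's start in the annotation of the counts, and for Casp14, Apoa1 and Rbp4 at most 49 bases from it. The motifs were TGTTTAC and TGTTTGC for forkhead factors and TTTATNG for the others on both strands. The forkhead motifs differ from each other at 1 base, so that 1 position cannot match both. Over 27025 genes, 7.24% of windows held either forkhead motif and 10.2% held TTTATNG. Of the 10 distal leaders 7 had a window in the table, of which 0 held a forkhead motif and 1 (Casp14) held TTTATNG. Of the 10 proximal leaders 6 had one, of which 1 (Apoa1) held TGTTTGC, in 2 places. Among the 140 windows of genes whose segment difference differed between genotypes, 7.86% held a forkhead motif and 12.9% held TTTATNG, near the shares of all genes. The 4 windows below are those of leading genes in which a motif was found, 2 of them from the genes with the smallest p in the comparison of genotypes. They are written 5′ to 3′ on the strand of the gene, with motif matches in capitals; those of Casp14 and Rbp4 read on the opposite strand.
Casp14, chr10:78718294-78718543, minus strand: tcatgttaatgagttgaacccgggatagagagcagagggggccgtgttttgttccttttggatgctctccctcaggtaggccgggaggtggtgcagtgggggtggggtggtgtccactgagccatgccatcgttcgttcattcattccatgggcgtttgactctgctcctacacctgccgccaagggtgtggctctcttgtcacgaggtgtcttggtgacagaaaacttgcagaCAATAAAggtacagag
Apoa1, chr9:46228380-46228629, plus strand: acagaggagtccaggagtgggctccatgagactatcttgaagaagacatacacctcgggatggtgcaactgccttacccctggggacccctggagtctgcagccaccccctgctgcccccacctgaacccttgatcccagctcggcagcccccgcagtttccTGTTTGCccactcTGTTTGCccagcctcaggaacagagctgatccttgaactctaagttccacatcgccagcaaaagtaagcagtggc
Anpep, chr7:79848211-79848460, minus strand: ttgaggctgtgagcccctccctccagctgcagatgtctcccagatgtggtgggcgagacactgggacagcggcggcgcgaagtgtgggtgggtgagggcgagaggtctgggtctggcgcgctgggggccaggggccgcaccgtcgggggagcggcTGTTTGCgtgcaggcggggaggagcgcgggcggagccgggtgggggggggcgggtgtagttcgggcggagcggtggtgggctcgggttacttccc
Rbp4, chr19:38125322-38125571, minus strand: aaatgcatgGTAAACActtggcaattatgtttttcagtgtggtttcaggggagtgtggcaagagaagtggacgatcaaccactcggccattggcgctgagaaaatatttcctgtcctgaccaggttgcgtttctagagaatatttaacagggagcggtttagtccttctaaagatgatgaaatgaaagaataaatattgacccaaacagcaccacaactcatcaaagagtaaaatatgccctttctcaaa

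Hox genes were then followed cluster by cluster. Of 21 tested genes of paralog groups 1 to 8, 5 were higher in distal and 12 in proximal colon, and 4 did not pass (median log2 difference -2.26, against -0.03 over all genes). Of 12 tested genes of groups 9 to 13, 6 were higher in distal and 5 in proximal colon (median 0.56, and -1.18 without a filter on low counts, where more members with few counts enter). The clusters went different ways. In the Hoxa cluster all genes that passed were higher in distal colon. Among those named here, the log2 differences were 0.70 for Hoxa3, 1.60 for Hoxa5, 2.47 for Hoxa6, 0.57 for Hoxa7, 3.60 for Hoxa9, 3.23 for Hoxa10, 2.05 for Hoxa11 and 6.53 for Hoxa13, and Hoxa2 and Hoxa4 did not pass. Hoxa13 was at 0.572 to 1.40 CPM in proximal and 69.3 to 108 CPM in distal libraries, without overlap (SE 0.16, adjusted p = 7.85e-09).

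In the Hoxb cluster every gene from Hoxb2 to Hoxb9 fell toward distal colon, while Hoxb1 did not pass (log2 difference -0.06, adjusted p = 0.898). Hoxb6, with the largest fall of these, went from 52.1 to 83.9 CPM in proximal to 0.307 to 3.77 CPM in distal libraries (log2 difference -5.83, SE 0.37, adjusted p = 3.81e-06). Hoxb9, next to the gap that separates it from Hoxb13, fell only from a median of 69.3 to 38.5 CPM, a log2 difference of -0.93 (SE 0.07, adjusted p = 1.61e-05). Its libraries did not overlap either, at 66.7 to 82.8 and 31.9 to 45.4 CPM. The Hoxd cluster had the same form as Hoxb: Hoxd3, Hoxd4, Hoxd8, Hoxd9 and Hoxd10 fell, Hoxd11 did not pass (log2 difference -1.63, SE 0.75, adjusted p = 0.101), and Hoxd13 rose. Hoxc genes had few counts, and those that passed fell; Hoxc10, with the largest fall, had 260 counts in proximal and 2 in distal libraries (fold 82.3, exact 95% interval 22.6 to 683, counting error only).

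**Figure D2:**
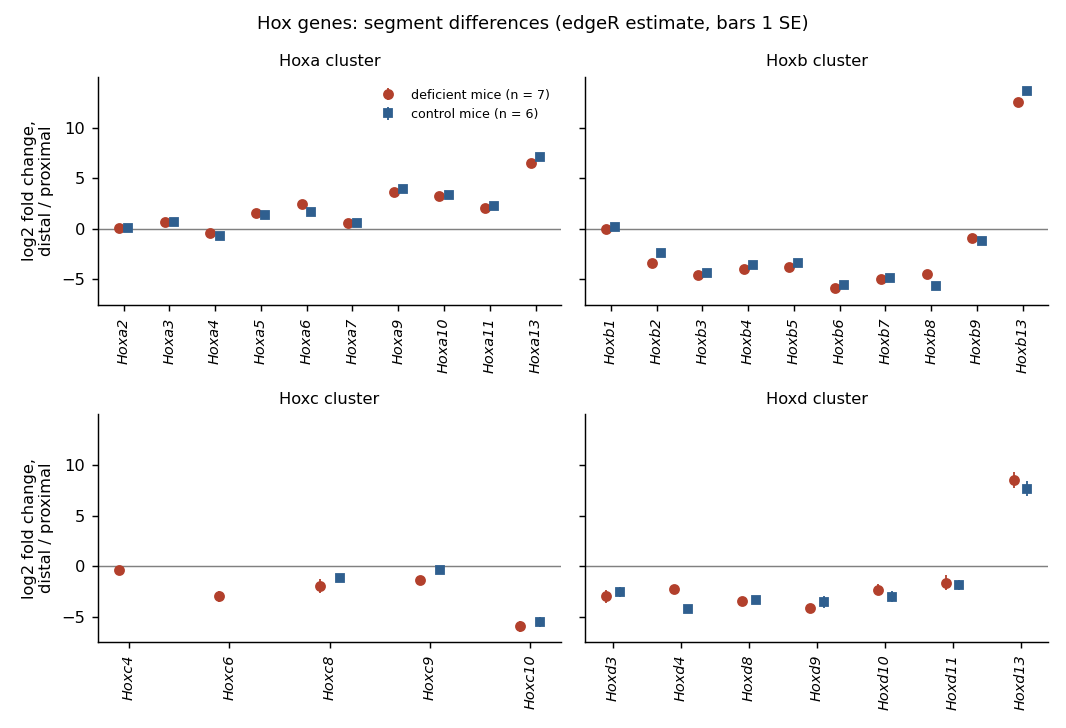
Log2 difference between distal and proximal colon for the reported Hox genes by cluster, with deficient mice as red circles and control mice as blue squares and bars of 1 SE (edgeR). Most Hoxa genes lie above 0, Hoxb2 to Hoxb9 and most Hoxd genes below 0, and Hoxa13, Hoxb13 and Hoxd13 stand highest in both genotypes.

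Of the Hox genes tested, 1 had a segment difference that differed between genotypes. Hoxd4 was at 0.45 to 2.00 CPM in distal deficient and 0.231 to 0.431 CPM in distal control libraries, against 2.43 to 6.29 and 4.05 to 8.62 CPM in proximal ones. Its log2 difference was -2.26 in deficient and -4.24 in control mice (interaction 1.99, adjusted p = 0.0399). This call was lost without mouse 3 (adjusted p = 0.0839), without any 1 of the 6 control mice and with several other settings. Among 22 tested gut epithelial transcription factors, 10 were higher in distal and 6 in proximal colon, against 22.7% and 22.4% of all genes. Prdm1, which also marks plasma cells, rose from 14.5 to 26.5 CPM in proximal to 34.4 to 72.3 CPM in distal libraries without overlap (log2 difference 1.12, SE 0.13, adjusted p = 0.000154). Cdx2, a homeobox regulator of intestinal identity named here after its values were seen, was at 319 to 412 CPM in proximal and 49.3 to 304 CPM in distal libraries (log2 difference -1.42, SE 0.31, adjusted p = 0.00502).

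Ion transport followed. Of 16 tested genes of apical sodium and chloride absorption, 11 were higher in distal and 1 in proximal colon (median log2 difference 0.84), against backgrounds of 22.7% and 22.4%. Scnn1g, a subunit of the epithelial sodium channel, was at 0 to 0.796 CPM in proximal and 0.225 to 24.6 CPM in distal libraries (log2 difference 5.16, SE 0.46, adjusted p = 3.25e-05). It rose in all 7 mice although the ranges overlapped. Slc26a3, the chloride/bicarbonate exchanger (named, like Slc26a6, after its values were seen), rose from 203 to 380 CPM in proximal to 484 to 1514 CPM in distal libraries (log2 difference 1.86, SE 0.22, adjusted p = 0.00016). The 1 gene higher in proximal colon was Slc26a6, an exchanger more typical of small intestine, at 1.41 to 10.8 CPM in proximal and 0.743 to 1.36 CPM in distal libraries.

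Secretion went the same way. Of 16 tested genes of chloride, bicarbonate and potassium secretion, 8 were higher in distal and 1 in proximal colon, against 22.7% and 22.4% of all genes. The largest difference in this list was that of Atp12a, which takes up potassium rather than secreting it. Ano1, a calcium-activated chloride channel also found in interstitial cells of Cajal, rose from 10.3 to 15.5 CPM in proximal to 204 to 460 CPM in distal libraries (log2 difference 4.46, SE 0.19, adjusted p = 4.22e-07). No library overlapped, and the difference was 3.26 in control mice. The interaction of 1.20 passed by little (adjusted p = 0.047) and was lost with another normalization (adjusted p = 0.0531) and without several single mice. Of 6 tested markers of interstitial cells of Cajal 3, Ano1 itself among them, were higher in distal and 2 in proximal colon. The shares of all genes were 22.7% and 22.4%. Kit, which defines these cells, had a log2 difference of 0.44 (SE 0.13, adjusted p = 0.0216), a call lost without mouse 2, 4 or 5. Atp2c2, a calcium pump of the secretory pathway, rose by 2.30 (SE 0.21, adjusted p = 3.38e-05).

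Carbonic anhydrases went both ways. Car1 and Car8, a member of the family without enzyme activity, fell (Car8 log2 difference -3.19, SE 0.31, adjusted p = 5.33e-05), while the membrane-bound Car4 and the cytosolic Car2 rose. Car4 was at 469 to 932 CPM in proximal and 1629 to 4406 CPM in distal libraries, a log2 difference of 2.00 (SE 0.24, adjusted p = 0.000166). Of 13 tested members 3 were higher in distal colon, near the 22.7% of all genes, and 7 in proximal colon, against 22.4%. The proximal count was 4 when only mice with Y-linked transcripts were kept. The list's summed level fell in all 7 mice, from 10260 to 15690 CPM to 2057 to 4971 CPM.

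Mucus and defence genes were mostly higher in distal colon. Of 23 tested goblet cell and mucus proteins, 15 were higher in distal and 1 in proximal colon, with a median log2 difference of 1.31 (1.32 in control mice). Tgm3, a transglutaminase that crosslinks mucus, went from 1.92 to 8.37 CPM in proximal to 682 to 1734 CPM in distal libraries, without overlap (log2 difference 8.31, SE 0.41, adjusted p = 8.36e-07). Fcgbp, a mucus granule protein, rose from 891 to 1445 CPM to 3923 to 9390 CPM (log2 difference 2.59, SE 0.16, adjusted p = 3.91e-06), and Zg16, a lectin that keeps bacteria from the epithelium, from 387 to 1135 CPM to 1935 to 5234 CPM. The mucin itself did not follow: Muc2, named after its values were seen, was at 729 to 1176 CPM in proximal and 742 to 1244 CPM in distal libraries, and did not pass (log2 difference 0.21, SE 0.11, adjusted p = 0.154).

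Glycan-building enzymes also moved. Of 23 tested genes of mucin O-glycan synthesis 11 were higher in distal and 6 in proximal colon, against 22.7% and 22.4% of all genes. B3gnt7, which extends keratan-type chains, rose from 4.58 to 8.99 CPM to 85.9 to 223 CPM (log2 difference 4.41, SE 0.20, adjusted p = 4.81e-07). Gcnt4, a branching enzyme, fell from 30.5 to 39.5 CPM to 6.22 to 12.6 CPM (log2 difference -2.18, SE 0.13, adjusted p = 2.70e-06). Of 21 tested genes of sialylation and sulfation 10 were higher in distal and 4 in proximal colon, against the same shares of all genes. They were led by the sialyltransferases St3gal3 (log2 difference 2.42, SE 0.09, adjusted p = 2.02e-07) and St3gal6 (2.86, SE 0.17, adjusted p = 3.10e-06).

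Of 20 tested genes of epithelial antimicrobial defence, 15 were higher in distal and 4 in proximal colon (median log2 difference 1.67). Nos2, the inducible nitric oxide synthase, rose from 15.5 to 46.2 CPM to 196 to 814 CPM, with the highest distal level in mouse 7 (log2 difference 3.84, SE 0.30, adjusted p = 1.42e-05). S100a8, a calprotectin subunit of neutrophils and keratinocytes, was at most 0.254 CPM in proximal and 4.78 to 113 CPM in distal libraries (log2 difference 7.96, SE 0.62, adjusted p = 1.48e-05). Going the other way, the C-type lectins Reg3b and Reg3g, named after their values were seen, fell by log2 differences of 4.80 and 3.65. Reg3b was at 656 to 2759 CPM in proximal and 13.9 to 88.7 CPM in distal libraries. Squamous keratins were present in distal libraries: of 14 tested squamous genes 9 were higher in distal and 2 in proximal colon, and 4 were higher in distal colon when only mice with Y-linked transcripts were kept. Krt16 was at most 0.176 CPM in proximal and 2.73 to 26.8 CPM in distal libraries, and the list's summed level was 103 CPM in the distal library of mouse 2, 204 CPM in mouse 1 and 340 to 467 CPM in the other distal libraries, against 127 to 169 CPM in proximal ones. The part of such epithelium in the S100a8 and Casp14 values was not tested.

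Genes of small-intestinal enterocytes were mostly higher in proximal colon. Of 21 tested, 17 were higher in proximal and 1 in distal colon, with a median log2 difference of -2.09. In control mice 7 of 18 tested were higher in proximal and 4 in distal colon, with a median of -0.30. Sis, the sucrase-isomaltase of the brush border, was at 40.9 to 138 CPM in proximal and 0.45 to 2.40 CPM in distal deficient libraries (log2 difference -6.31, SE 0.33, adjusted p = 1.07e-06). Its difference in controls was alike, at -5.97, from a proximal level of 3.92 to 49.5 CPM. The 1 member higher in distal colon was the peptide transporter Slc15a1, from 9.13 to 56.8 CPM in proximal to 137 to 253 CPM in distal libraries (log2 difference 3.03, SE 0.33, adjusted p = 9.86e-05).

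Brush border peptidases shared the direction, with 9 of 12 higher in proximal and 1 in distal colon (median log2 difference -1.39, and -0.07 in control mice). Enpep, glutamyl aminopeptidase, was at 228 to 406 CPM in proximal and 31.3 to 74.4 CPM in distal libraries (log2 difference -2.52, SE 0.20, adjusted p = 1.42e-05). Naaladl1, a dipeptidase, fell from 224 to 528 CPM to 59.9 to 96.9 CPM (log2 difference -2.06, SE 0.17, adjusted p = 2.00e-05). Neither overlapped between segments. Of 11 tested bile acid genes 7 were higher in proximal and 1 in distal colon. Slc10a2, the apical bile acid importer of the ileum, was at 213 to 395 CPM in proximal and 7.34 to 42.9 CPM in distal libraries (log2 difference -4.01, SE 0.36, adjusted p = 3.25e-05), and the bile acid receptor gene Nr1h4 fell by 1.15 (SE 0.13, adjusted p = 0.00013).

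Genes of fatty acid oxidation differed by segment in RNA level. Of 23 tested genes of fatty acid oxidation 19 were higher in proximal colon and the other 4 did not pass (median log2 difference -0.98). Ppara, the nuclear receptor that controls this pathway, was at 13.5 to 35.0 CPM in proximal and 2.58 to 10.5 CPM in distal libraries (log2 difference -2.45, SE 0.18, adjusted p = 1.18e-05). Cpt1b, which loads fatty acids for entry into mitochondria in muscle, fell from 3.78 to 6.47 CPM to 0.364 to 1.08 CPM, and muscle markers fell with it.

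Cholesterol synthesis went the other way, in small steps. Of 23 tested genes 18 were higher in distal colon and the other 5 did not pass (median log2 difference 0.59, and 0.60 in control mice). None of the 23 reached 2-fold. Of 34 tested genes of xenobiotic metabolism 20 were higher in proximal and 4 in distal colon. Adh1, an alcohol and retinol dehydrogenase, was the strongest of the 4, from 43.0 to 65.6 CPM to 393 to 960 CPM (log2 difference 3.54, SE 0.14, adjusted p = 3.66e-07). The retinaldehyde dehydrogenase gene Aldh1a1 fell from 545 to 818 CPM to 5.02 to 49.1 CPM (log2 difference -5.32, SE 0.45, adjusted p = 2.38e-05). Nuclear-encoded genes of oxidative phosphorylation hardly moved: 26 of 27 did not pass, and the 1 that did, Cyc1, lost its call and turned sign with a transcript-length offset (0.13, adjusted p = 0.438).

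Hormone genes divided by peptide. Of 11 tested, 4 were higher in distal and 4 in proximal colon, against 22.7% and 22.4% of all genes. Pyy, peptide YY of distal L cells, rose from 10.1 to 20.3 CPM to 69.4 to 189 CPM, without overlap (log2 difference 2.83, SE 0.22, adjusted p = 1.36e-05). Gcg, which encodes proglucagon, rose in all 7 mice from 4.30 to 7.59 CPM to 7.55 to 26.2 CPM, ranges that touch (log2 difference 1.45, SE 0.16, adjusted p = 0.000103). Nts, neurotensin, fell from 2.67 to 8.60 CPM to 0.0643 to 1.64 CPM (log2 difference -3.27, SE 0.40, adjusted p = 0.000179). Tac1, the substance P precursor of enterochromaffin cells and enteric neurons, rose by 2.94 (SE 0.29, adjusted p = 5.69e-05).

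Cells of the gut wall were measured with the epithelium, and their markers differed by segment. Of 16 tested smooth muscle genes 15 were higher in proximal colon and 1 did not pass (median log2 difference -1.21, and -0.46 with 8 of 16 in control mice). Their summed level was 3573 to 6187 CPM in proximal and 1357 to 2935 CPM in distal libraries, without overlap. Of 21 tested markers of enteric neurons and glia 15, and of 11 tested adipocyte genes 9, were higher in proximal colon, and the rest of both lists did not pass. With only mice that had Y-linked transcripts the neuron and glia count was 8 and that of adipocyte genes 0, and the latter was 4 without mouse 3 and 5 without mouse 6 or mouse 7. Of 13 tested epithelial pan-markers 3 were higher in distal colon, a share near the 22.7% of all genes, and 1 in proximal colon, with summed levels of 15200 to 21810 and 15630 to 26240 CPM that overlapped. The part of these marker levels in the gene groups above and below was not tested. Hedgehog genes, through which the epithelium signals to the wall, had the same direction as the muscle markers: 9 of 12 tested were higher in proximal colon, among them Foxf1 and Foxf2, mesenchymal targets of the pathway, and the ligand gene Shh, at 1.29 to 2.65 CPM in proximal and 0.251 to 0.99 CPM in distal libraries (log2 difference -1.41, SE 0.31, adjusted p = 0.00512).

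Genes of B cells and lymphoid follicles were higher in distal pieces. All 15 tested B cell and follicle genes were higher in distal colon, with a median log2 difference of 2.81, and 13 of 15 passed in control mice with a median of 1.46. Their summed level was 39.1 to 135 CPM in proximal libraries, highest in mouse 5, and 90.2, 93.4, 280, 313, 342, 486 and 886 CPM in the distal libraries of mice 1, 2, 3, 7, 4, 6 and 5. Each mouse was higher in distal colon, by factors that differed widely. Spib, a B cell and M cell factor, rose from 7.16 to 15.0 CPM to 17.9 to 85.5 CPM (log2 difference 2.28, SE 0.21, adjusted p = 3.84e-05). All 11 tested genes of MHC class II presentation were higher in distal colon too (median 1.09), such as H2-Ab1 at 192 to 366 CPM in proximal and 407 to 623 CPM in distal libraries (log2 difference 0.99, SE 0.11, adjusted p = 9.65e-05). Of 24 tested interferon-stimulated genes 13 were higher in distal colon and 11 did not pass, and without mouse 7 the count was 8. The largest difference was that of the guanylate-binding protein gene Gbp2, from 17.5 to 44.3 CPM to 121 to 332 CPM.

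Of 26 tested cell cycle genes 8 were higher in proximal colon in deficient mice, all by less than 2-fold, with a median log2 difference of -0.35, against 22.4% of all genes. Without mouse 2 the count was 13, without mouse 3 it was 4, without mouse 7 it was 5, and with only mice that had Y-linked transcripts it was 0. In control mice 22 of 26 were higher in proximal colon, with a median of -0.65. The interaction median of the list was 0.30, against 0.02 over all genes, and no member passed the interaction test. The plot of gene lists places these groups side by side.

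**Figure D3:**
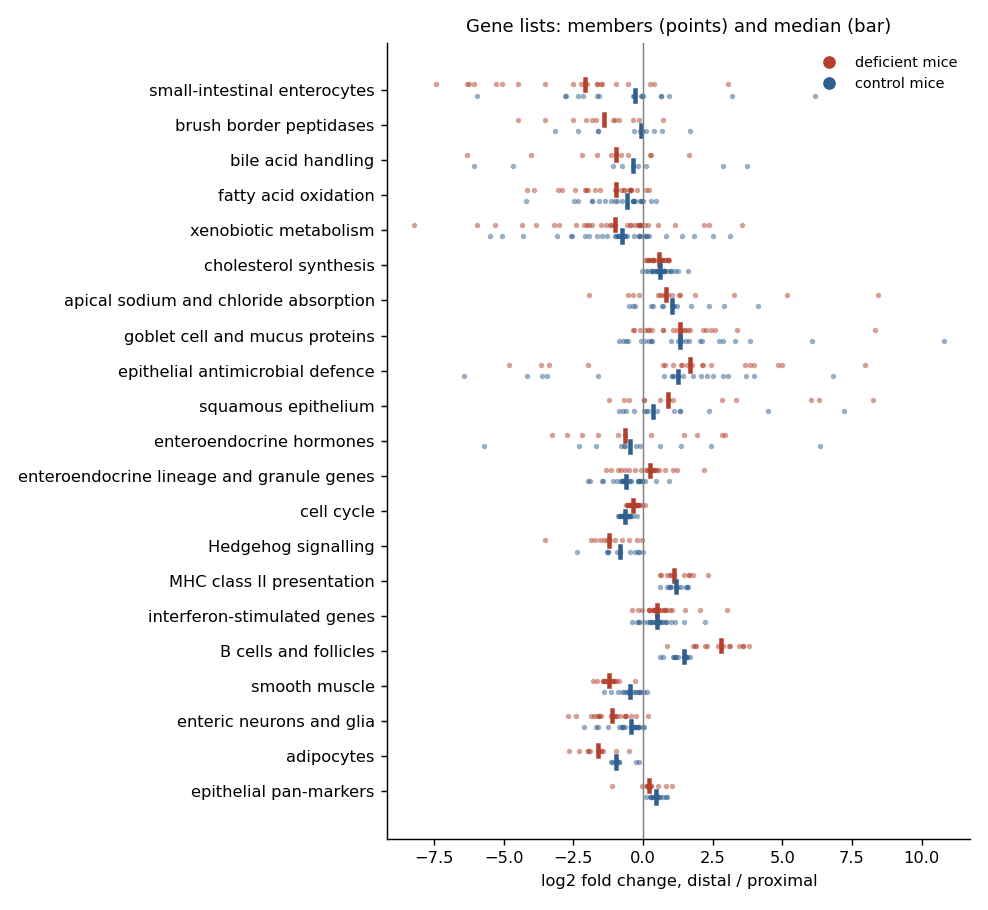
Log2 difference between distal and proximal colon for the tested members of 21 gene lists, 1 point per gene and a bar at the list's median, with deficient mice in red and control mice in blue. B cell, MHC class II and mucus genes lie to the right of 0 and small-intestinal, fatty acid oxidation, muscle and neuron genes to the left, and the medians of small-intestinal enterocyte genes stand at -2.09 and -0.30 in the 2 genotypes.

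How these segment differences compared with those of control mice was tested as an interaction over 26 libraries of 13 mice. A step of quantification drops out of it as far as it acted alike in both genotypes. The gap between full and effective length in proximal libraries was 228 to 239 bases in control and 215 to 246 bases in deficient mice. Most differences were shared. Of 16210 genes tested in both genotypes, 5176 were called in both with the same sign, 70.9% of the calls in deficient and 73.0% of those in control mice, and 22 were called with opposite signs. Across genes the log2 differences of the genotypes had a Pearson r of 0.90 and a Spearman rho of 0.84, as a description, since genes are not independent replicates. Of 17595 genes tested for the interaction, 178 (1.01%) passed: 76 (0.432%) with a higher and 102 (0.58%) with a lower distal-to-proximal difference in deficient mice. Of these, 59 were called between segments in deficient mice only, 47 in control mice only, 20 in both with a larger and 27 with a smaller difference in deficient mice, 19 with opposite signs, and 6 in neither. A gene too low to be tested in 1 genotype counts here as not called in it, such as Wnt3 in control mice. The count of 178 rested on single mice more than the counts above: it was 102 without control mouse 2, 110 without deficient mouse 3, and 78 without deficient mice 4 and 5 and control mouse 4, whose distal libraries held the most pancreatic transcripts. With only the 4 control mice without Cre it was 162, of which 111 were among the 178, and calls lost there include Hoxd4 (adjusted p = 0.121), Nkx2-2 (0.0655) and St3gal6 (0.0996). Without control mouse 6 it was 200, of which 147 were among the 178. Sex and age were not balanced between the genotypes. Deficient mice 3, 5 and 7 had few Y-linked transcripts, and the control libraries held 140 to 233 CPM of them. Control mice 5 and 6 were 18 months old, and no deficient mouse was older than 13 months. With only the 4 deficient mice that had Y-linked transcripts the count was 70, of which 60 were among the 178. The part of sex and age in the interaction was not tested separately from that of genotype.

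**Figure D4:**
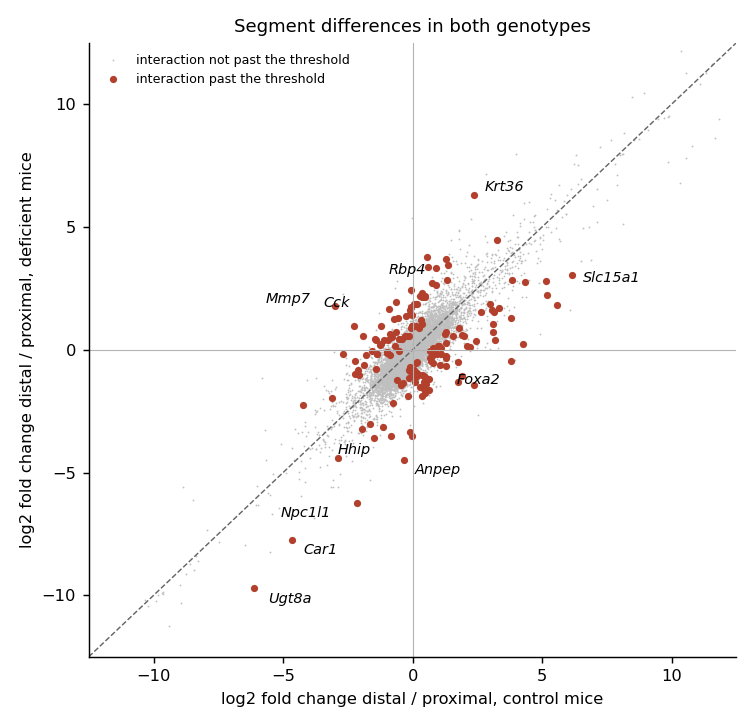
Log2 difference between distal and proximal colon in control mice (x axis) and deficient mice (y axis), 1 point per gene, with genes past the interaction threshold in red and the line of equality dashed. Most genes follow the line, with a Pearson r of 0.90, and Anpep lies far below it, near 0 in controls.

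Anpep (chromosome 7, 79821803 to 79861059, minus strand, GRCm38), aminopeptidase N of the small-intestinal brush border, had the smallest p. The TGTTTGC motif shown above lies before its RefSeq start, far from the start in the annotation of the counts. In deficient mice it was at 112 to 639 CPM with a median of 386 in proximal and 7.50 to 21.6 CPM with a median of 16.6 in distal libraries. In control mice it was at 6.01 to 16.7 and 5.08 to 9.00 CPM. Only the proximal deficient libraries stood apart from the other 3 groups. The log2 difference was -4.48 in deficient mice (SE 0.33, adjusted p = 1.05e-05) and -0.32 in control mice (adjusted p = 0.152), with an interaction of -4.15 (SE 0.39, adjusted p = 0.000289).

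The form recurred in another absorptive gene. Npc1l1, the sterol importer, was at 10.9 to 41.8 CPM in proximal deficient libraries and at most 2.84 CPM in every other group (interaction -4.13, adjusted p = 0.00517). Unlike that of Anpep, its difference also passed in control mice (log2 difference -2.16, adjusted p = 0.00633), against -6.24 in deficient mice. Apob, the backbone of chylomicrons, took opposite directions: it fell from a median of 233 to 71.7 CPM in deficient mice (log2 difference -1.65, SE 0.22, adjusted p = 0.000345) and rose from 115 to 183 CPM in control mice (0.63, adjusted p = 0.0268). In all, 7 of 21 tested small-intestinal enterocyte genes, and 3 of 12 brush border peptidases, had a lower distal-to-proximal difference in deficient mice, against 0.58% of all genes, and the other members did not pass. The chemokine gene Ccl25, made by small-intestinal epithelium, joined them at 38.5 to 117 CPM in proximal and 8.82 to 25.1 CPM in distal deficient libraries (interaction -1.71, adjusted p = 0.00339).

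Slc15a1 and Slc34a2 reached a lower interaction from the opposite side. Slc15a1 was higher in distal colon of both genotypes. Its proximal level was 9.13 to 56.8 CPM in deficient mice, against 1.26 to 3.93 CPM in controls, and the log2 differences were 3.03 and 6.16 (interaction -3.13, adjusted p = 0.00433). Slc34a2, a phosphate transporter, was at 62.3 to 150 and 80.0 to 226 CPM in proximal and distal deficient libraries, which did not pass (log2 difference 0.40, adjusted p = 0.156), but passed without mouse 4 (0.58, adjusted p = 0.0391) and without mice 4 and 5 (0.73, adjusted p = 0.0113). In controls it rose from 2.29 to 30.6 CPM to 21.8 to 142 CPM (interaction -2.78, adjusted p = 0.00745, 0.0586 without the pairing by mouse and 0.0645 without the mice with pancreatic transcripts). In both cases the proximal libraries of deficient mice lay above those of controls.

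Carbonic anhydrases again went opposite ways. Car1 was at 351 to 1494 CPM in distal control libraries, all above the 23.9 to 122 CPM of distal deficient libraries, and its log2 difference was -7.74 in deficient and -4.64 in control mice (interaction -3.10, adjusted p = 0.00258). This call was lost with DESeq2 (adjusted p = 0.136). Car2 was at 30.5 to 80.1 CPM in proximal and 183 to 381 CPM in distal deficient libraries, without overlap (log2 difference 2.19, SE 0.14, adjusted p = 5.17e-06). In control mice it was at 251 to 909 and 692 to 1033 CPM and did not pass (0.27, adjusted p = 0.363), with an interaction of 1.92 (adjusted p = 0.00433).

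Enteroendocrine genes went the other way. Of 14 tested hormone genes 3 (Gcg, Pyy and Cck), and of 24 tested lineage and granule genes 5 (Nkx2-2, Pax4, Chga, Chgb and Scg3), had a higher distal-to-proximal difference in deficient mice, against 0.432% of all genes. The calls of Nkx2-2 and Pax4 were lost with the transcript-length offset (adjusted p = 0.165 and 0.162). That of Nkx2-2 was also lost without control mouse 2 or 5, without deficient mouse 3 and with only control mice without Cre (adjusted p = 0.0514 to 0.0655), and that of Pax4 without control mouse 2, 3, 4 or 5 or deficient mouse 2, 4 or 5 (0.0557 to 0.109). That of Chgb was lost without control mouse 2 (adjusted p = 0.0503), and all 3 without the mice with pancreatic transcripts (0.086 to 0.188). Cck, cholecystokinin, rose toward distal colon from 3.94 to 8.69 CPM to 13.9 to 45.5 CPM in deficient mice, and fell from 2.72 to 6.27 CPM to 1.07 to 3.61 CPM in control mice (log2 differences 1.95 and -0.65, interaction 2.60, adjusted p = 0.00366). Chga, the granule protein chromogranin A, was at 17.3 to 27.0 CPM in proximal and 19.2 to 37.1 CPM in distal deficient libraries, which overlapped, and at 76.8 to 215 and 30.5 to 70.5 CPM in control libraries (interaction 1.91, adjusted p = 0.00509). Gcg had no difference past the threshold in controls, at 39.0 to 62.0 and 30.6 to 70.8 CPM (interaction 1.55, adjusted p = 0.0054, and 0.0531 without the mice with pancreatic transcripts). For Gcg and Chga, both segments of deficient mice lay below both segments of controls, except that the highest distal deficient value of Chga, 37.1 CPM, passed the lowest distal control value of 30.5 CPM. Insl5, a distal L cell hormone named after its values were seen, was too low to be tested in deficient mice, at 0.0728 to 0.681 CPM in distal libraries against 38.3 to 69.6 CPM in distal control libraries.

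Rbp4 (chromosome 19, 38116629 to 38125281, minus strand, GRCm38), the retinol carrier of plasma, had the second smallest p, and its promoter window holds the TGTTTAC motif shown above. It was at 4.84 to 9.49 CPM in proximal and 23.2 to 54.4 CPM in distal deficient libraries, and at 6.31 to 12.0 CPM over both segments of controls. Here only the distal deficient libraries stood apart. The log2 difference was 2.43 in deficient mice (SE 0.19, adjusted p = 1.51e-05) and -0.08 in control mice (adjusted p = 0.663), with an interaction of 2.51 (SE 0.24, adjusted p = 0.000289). In Map2 and Dync1i1, which encode a microtubule-associated protein and a dynein chain, the distal deficient libraries also stood apart. Dync1i1 was at 4.83 to 10.8 CPM in them, against at most 2.84 CPM in the other groups (interaction 1.80, adjusted p = 0.00203). Map2 was at 22.4 to 42.4 CPM, against at most 11.7 CPM (interaction 1.72, adjusted p = 0.00212). Unlike that of Rbp4, the Map2 difference passed in control mice too (log2 difference 0.91, adjusted p = 0.00497), against 2.63 in deficient mice. Fmo4, a flavin monooxygenase, took opposite directions, from a median of 4.87 to 3.28 CPM in deficient and from 1.97 to 6.11 CPM in control mice (interaction -2.23, adjusted p = 0.000615). Its difference in deficient mice did not pass with the transcript-length offset (adjusted p = 0.0536), without mouse 4 (0.0531) or without mice 4 and 5 (0.0935).

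Signalling and barrier genes supplied single calls. Hhip, the Hedgehog-binding antagonist, was at 5.88 to 7.78 CPM in proximal and 0.13 to 1.09 CPM in distal deficient libraries, and at 2.64 to 7.89 and 2.26 to 4.0 CPM in control libraries (interaction -2.70, adjusted p = 0.00339). Smooth muscle markers had a median log2 difference of -1.21 in deficient and -0.46 in control mice, and their part in the Hhip difference was not tested. Cldn2, a pore-forming claudin of crypts, showed no difference past the threshold in deficient mice, at 100 to 149 and 86.2 to 150 CPM, while in control mice it fell from 152 to 274 CPM to 37.1 to 106 CPM (interaction 1.54, adjusted p = 0.00604, and 0.0609 without the mice with pancreatic transcripts). Mmp7, a matrix protease of Paneth cells, rose toward distal colon in deficient mice (log2 difference 1.77) and fell in control mice (-3.02), all at levels of at most 7.08 CPM (interaction 4.79, adjusted p = 0.0026).

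**Figure D5:**
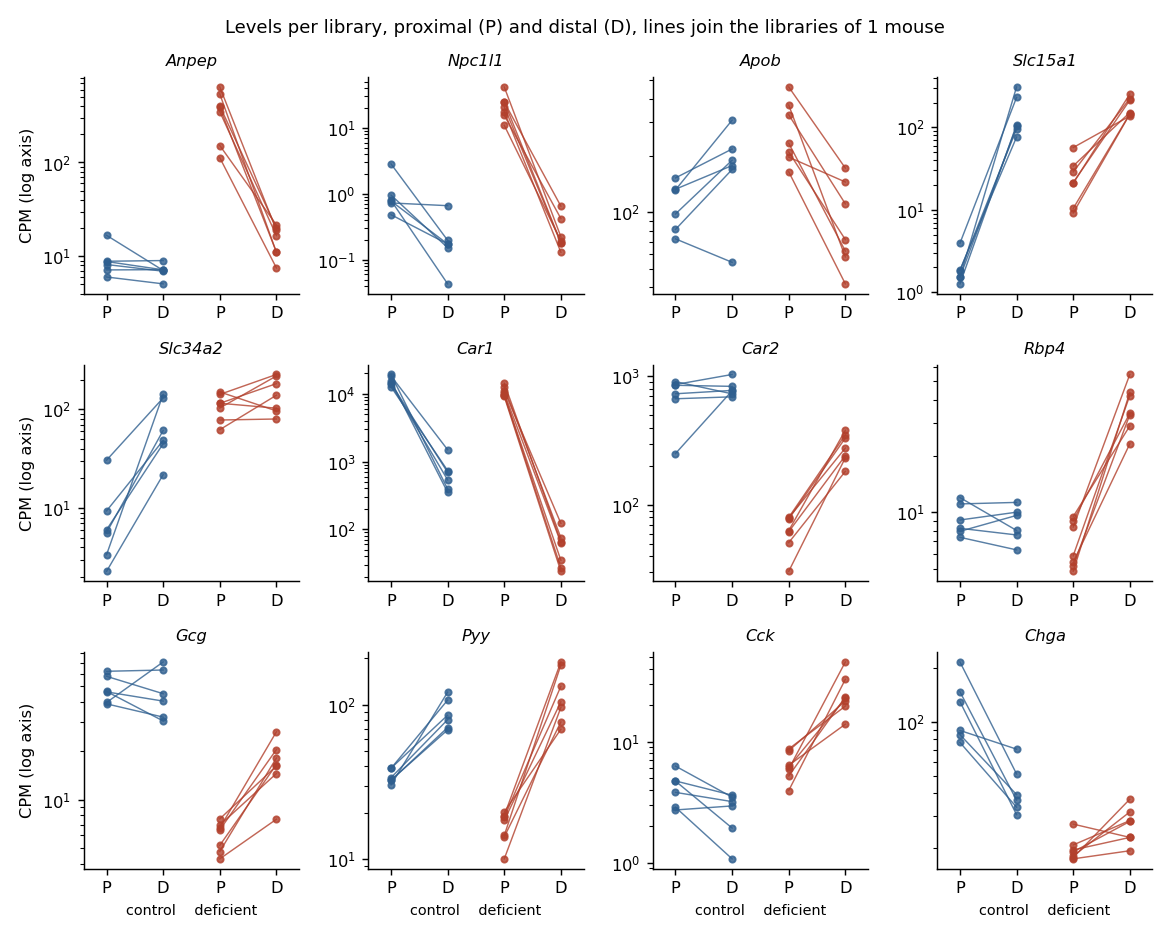
CPM on a log axis in every library for 12 genes past the interaction threshold, proximal (P) and distal (D), with 6 control mice in blue and 7 deficient mice in red and a line joining the libraries of 1 mouse. Anpep and Npc1l1 stand high in proximal deficient libraries only, Rbp4 and Cck in distal deficient libraries, and Gcg is lower in both deficient segments than in controls, with a distal maximum of 26.2 CPM.

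The deleted genes themselves were read last. Foxa1 lies on the minus strand of chromosome 12 (GRCm38, 57540628 to 57546916). It stood at 10.0 to 14.4 CPM in proximal and 7.18 to 10.5 CPM in distal deficient libraries, and fell within each of the 7 mice, by a log2 difference of 0.43 (SE 0.13, adjusted p = 0.0203) that did not pass with a transcript-length offset (-0.09, adjusted p = 0.641) or without mouse 4 (-0.35, adjusted p = 0.0589). Foxa2, on the minus strand of chromosome 2 (GRCm38, 148042877 to 148046969), stood at 1.23 to 1.75 CPM in proximal and 0.325 to 1.37 CPM in distal deficient libraries and did not pass (log2 difference -0.68, SE 0.26, adjusted p = 0.055), but passed with DESeq2 (-0.66, adjusted p = 0.0413) and without mouse 3 (-0.83, adjusted p = 0.0396). In control mice Foxa2 was higher in distal colon, at 15.5 to 30.2 CPM against 6.03 to 15.7 CPM (log2 difference 1.28, adjusted p = 0.000175), and the interaction passed (-1.93, SE 0.29, adjusted p = 0.0046). In control mice Foxa1 was at 50.7 to 69.1 CPM in proximal and 42.2 to 80.4 CPM in distal libraries, except for control mouse 6 at 13.9 and 7.57 CPM. These are counts over all exons of each gene, of which the deleted ones were not read separately.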

How the data were processed

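Estimated counts per transcript, with effective lengths, were deposited by the authors for each library. The submitters' processing notes name bcl2fastq 2.20.0.422, cutadapt 2.5, kallisto 0.46.2, edgeR and GRCm38, and the file headers are those of kallisto; no source used here gives the setting for fragment length. The deposited estimated counts were summed per gene over GENCODE mouse release 21 (116728 of 119414 transcripts matched; the rest held 0.902% to 1.071% of the counts of a deficient library) and rounded to whole numbers. The deposited matrices normalized within 1 segment each were not used.

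Genes were filtered (filterByExpr), scaled by TMM and tested with edgeR 4.0.16 (quasi-likelihood, R 4.3.3), with mouse as a block and segment as the effect. The deficient and the control mice were fitted separately, and the interaction over 26 libraries of 13 mice. Adjusted p-values are Benjamini-Hochberg over all genes of a fit, with a threshold of 0.05. Levels are CPM of the TMM-scaled libraries of the interaction fit, and a SE is the log2 difference divided by the square root of F. Pairing rests on the labels, which give 1 mouse for both libraries. The correlation of deviations within a mouse was -0.004 to 0.406, and the highest for its own number in 5 of 7 mice. The script was tested on simulated counts.

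Named genes were Foxa1 and Foxa2, the 10 largest differences each way (mean of at least 5 CPM in the higher segment, same sign in 7 mice), the 8 smallest interaction p, up to 4 genes of smallest p per gene list, and Hox genes. List members past the interaction threshold were also named, after their values were seen. Members and lists were chosen with earlier results of these data known. Alternatives were RLE scaling, DESeq2 1.42.0, other filters, a transcript-length offset, long genes only, no block, and leaving out mice. Intervals and floors cover counting error only. Some results that this rule would name are not reported here.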

Additional observations from a re-analysis of the deposited data

Results flagged for a closer look

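In 10 named genes the paired log2 difference, on the log2(CPM + 0.5) scale, of 1 of the 7 deficient mice lay far from the others by Dixon's criterion, which chance meets in about 1 of 20 groups. The screen covered the 223 named genes apart from those not reported, so chance alone would give a count near this one. The mouse and value were mouse 1 for Scg3 (1.21), mouse 2 for Cyp2c66 (-4.49) and Fcgbp (1.78), mouse 5 for Enpep (-3.67) and Slc1a1 (0.62), and mouse 7 for Nos2 (5.67) and Kit (-0.39). In mouse 4 they were Lpl (0.89), Plin4 (1.12) and Mcpt2 (4.04). Lpl and Plin4 are adipocyte genes and Mcpt2 is a mast cell protease.

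The same criterion, applied to every gene list in both segments, picked out 8 summed list levels in 1 library. In the distal library of mouse 4 these were 444.6 CPM of adipocyte, 136.8 CPM of mast cell and 1490 CPM of pancreatic acinar genes (the full list of 12, next highest 613.6 CPM). In mouse 5 they were 135.4 CPM of B cell genes in the proximal and 127.5 CPM of T and NK cell genes in the distal library. In distal libraries they were also 3654 CPM of aquaporins and 7110 CPM of interferon-stimulated genes in mouse 1 and 7661 CPM of secretion genes in mouse 2, the last of them the lowest of its group.

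For 40 named genes the interaction test found a segment difference that differed between genotypes, and some of these calls were lost under other settings, as given below. The log2 interaction was negative, a lower distal-to-proximal difference in deficient mice, for the absorptive genes Anpep (-4.15), Npc1l1 (-4.13), Slc15a1 (-3.13), Slc34a2 (-2.78), Apob (-2.28), Slc6a20a (-1.40), Cndp2 (-1.17) and Dgat1 (-0.96). It was negative too for the enzymes Ugt8a (-3.60), Car1 (-3.10), Fmo4 (-2.23), St3gal4 (-2.10), Ugt1a6a (-1.35), Cyp2d26 (-1.25) and St3gal6 (-0.96), and for Hhip (-2.70), Foxa2 (-1.93), Ccl25 (-1.70) and Gsn (-1.11).

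It was positive for the endocrine genes Cck (2.60), Pax4 (2.48), Nkx2-2 (1.97), Chga (1.91), Gcg (1.55), Chgb (1.49), Pyy (1.49) and Scg3 (1.33). Among other genes it was positive for Mmp7 (4.79), the keratin gene Krt36 (3.94), Rbp4 (2.51), the ligand genes Wnt3 (2.16) and Bmp3 (1.27), Hoxd4 (1.99), Car2 (1.92), Dync1i1 (1.80), Map2 (1.72), Cldn2 (1.54), Ano1 (1.20), the esterase gene Ces1f (1.05) and the sulfotransferase gene Sult1a1 (0.92).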

How the results depend on the processing

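With no replicate block, so that the pairing by mouse was ignored, 7695 genes differed between segments in deficient mice (7445 with it), 6656 in control mice (7231) and 222 in the interaction (178). Over the settings tried, the 7445 moved beyond 1.5 times with only genes whose transcripts are all at least 1000 bases long (1971, with 1824 in control mice and 80 in the interaction, where fewer genes were tested) and with only deficient mice that had Y-linked transcripts (4774), a setting chosen after seeing the data. The interaction gave 528 genes with DESeq2, where the cause was not tested, 78 without deficient mice 4 and 5 and control mouse 4, whose distal libraries held pancreatic transcripts, and 70 with only deficient mice that had Y-linked transcripts, both with fewer samples and chosen after seeing the data. With the transcript-length offset 7137 genes differed in deficient mice, and 6340 of the 7445 kept their sign and call. The estimate of 54 of the 7445 changed sign, whether or not it passed with the offset (66 of 7231 in control mice and 0 of 178 in the interaction). Of the 178 interaction calls, 142 kept their sign and call. Leaving out 1 mouse at a time gave 5906 to 7370 genes in deficient mice, 5381 to 7311 in control mice and 102 to 225 in the interaction. Of 223 named genes, 3 changed sign somewhere, all below the threshold there: Cyc1 with the length offset (0.13), Cldn2, which ranged from -0.11 to 0.0188 over fits that left out 1 mouse, and Sult1a1, which ranged from -0.16 to 0.0048 over those fits and stood at 0.0077 with only mice labelled male. Of these 223 genes 40 lost a call under at least 1 setting, and of 41 named interaction values 22 did, most often Ano1, Ces1f, Hoxd4, Slc6a20a, Pax4 and Ugt8a. The interaction call of St3gal4 was lost without the pairing by mouse (adjusted p = 0.558). It was also lost without the mice with pancreatic transcripts (0.071) and with only deficient mice that had Y-linked transcripts (0.0946). Depth was lowest in the distal library of mouse 7, at 18472867 counts, and limits genes near the floor of 3 counts.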
